A study of Mus musculus with 10 samples.

Results

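The 8 genes described here encode components and receptors of the complement system, a cascade of plasma and tissue proteins that tags microbes and dying cells and calls in leukocytes. They were C1qa, C1qb and C1qc, which encode the chains of the recognition molecule C1q, the components C3, Cfb and Cfp, and the receptors C3ar1 and C5ar1. They were taken by symbol from a table of 16936 protein-coding genes, and all 8 were in it. The cells were mouse bone marrow-derived macrophages, grown from marrow for 7 days with the cytokine GM-CSF at 50 ng/mL. Of the 10 samples 5 were left untreated, and 5 received PLG, which the series' design text gives as human plasminogen, for 24 h. The blood protein plasminogen is cut to yield the protease plasmin, and the series' title concerns activation of macrophages through TLR2 by its lipid cargo. The sources used here give no strain, sex or age of the mice. No label names cells without TLR2 or a control preparation. The effect of plasminogen therefore cannot be told apart from that of anything else in the added material. The labels do not say whether replicates came from separate mice or cultures. The p-values thus cover only the spread among the samples at hand, and that spread may be technical.

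C1q binds antibody complexes and dying cells through its globular heads and carries the proteases C1r and C1s, which start the classical pathway. All routes meet at C3. Its cleavage leaves C3b on the target and frees the peptide C3a. Factor B, encoded by Cfb, joins C3b to form the convertase of the alternative pathway, and properdin, encoded by Cfp, stabilises that convertase. C3a signals through C3ar1, and C5a, released further down the cascade, through C5ar1. Liver cells make most plasma complement, but C1q and properdin come largely from myeloid cells, so macrophages are a known source of both.

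Expression was given as FPKM, a read count scaled by gene length and sequencing depth. The reads on the genes of the table, recovered from the steps between low values, came to 28426106 to 37680105 per untreated sample and 33547089 to 64214553 per PLG sample. Testing was limited to the 9997 genes with 1 FPKM or more in 5 or more samples, of which 60.4% passed at an adjusted p under 0.05 (29.1% higher and 31.3% lower with PLG). Fold changes are differences of means of log2(FPKM + 1), a scale that understates the change of low genes. Across genes, the correlation of samples was 0.976 to 0.995 inside a group and 0.847 to 0.868 across groups. The labelled cell type was checked on a list of 8 macrophage markers, all of which were tested. Their summed level was 5843 to 7357 FPKM in untreated and 2578 to 2792 FPKM in PLG samples, and 5 fell, 2 rose and 1 did not pass. Lyz2, the lysozyme gene that makes up most of that sum, went from 5792 ± 561 to 2000 ± 77.9 FPKM, while Adgre1, which encodes F4/80, rose from 80 ± 4.8 to 177 ± 9.79 FPKM (SD, n = 5). Of 8 dendritic cell markers 6 were tested, of which 4 rose and 2 fell, with sums of 301 to 347 FPKM in untreated and 683 to 757 FPKM in PLG samples. The migration receptor gene Ccr7, which makes up most of that sum with PLG, went from 38.1 ± 10.8 to 542 ± 27.1 FPKM. Itgax, which makes up most of the untreated sum, fell from 270 ± 14.9 to 156 ± 6.59 FPKM. The rise of the sum thus rests on Ccr7. Itgam of the macrophage list and Itgax of the dendritic cell list are also complement receptor genes, described below. Sums for the 9 neutrophil markers in the table were 14.8 to 22.7 FPKM in untreated and 19.0 to 27.7 FPKM in PLG samples. Of these 5 were tested, of which 2 rose, 1 fell and 2 did not pass. S100a8 rose from a mean of 7.07 to 11.9 FPKM and Camp from 0.254 to 2.4 FPKM, while Cebpe fell from 2.84 to 1.35 FPKM. Camp entered the test only through the PLG samples. Ly6g and Mpo were listed at 0 in all untreated samples and at means of 0.095 and 0.0154 FPKM with PLG. For the 5 platelet markers in the table the sums were 55.7 to 68.3 FPKM in untreated and 95.5 to 111 FPKM in PLG samples, led by Pf4. Markers of B cells, T and NK cells and erythroid cells stayed at a sum of 1.54 FPKM or below in every sample. Mast cell and basophil markers reached at most 4.30 FPKM. Stromal and endothelial markers summed to 6.11 to 7.54 FPKM in untreated and 10.5 to 11.8 FPKM in PLG samples. Of these Pdgfrb rose from 0.253 ± 0.0786 to 5.18 ± 0.256 FPKM, entering the test only through the PLG samples, and Kdr did not pass. In RNA from a whole culture, fewer cells of a type and less RNA per cell cannot be told apart, and the part of these marker changes in the results below was not tested.

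The C1q genes lie side by side on chromosome 4 of GRCm38, all on the minus strand. C1qb (ENSMUSG00000036905.8) spans 136880129 to 136886187, C1qc (ENSMUSG00000036896.5) 136889804 to 136893065 and C1qa (ENSMUSG00000036887.5) 136895917 to 136898803. C1qb and C1qc are separated by 3616 bases and C1qc and C1qa by 2851. RefSeq promoter windows on GRCm38.p6, taken as the 250 bases before the start of the gene, were matched for 6 of the 8 genes. Shown here, 5′ to 3′ on the minus strand, are those of C1qb and C1qc, whose transcripts fell together, and that of C3, which rose. For C1qc only the part outside the gene's bounds in the expression table is printed, bases 250 to 152 before the RefSeq start. Capitals mark GAGGAA, a motif bound by the ETS factor PU.1, on either strand. The shorter core GGAA, which ETS factors share, was not searched and also occurs unmarked in each window printed.
C1qb, chr4:136886201-136886450: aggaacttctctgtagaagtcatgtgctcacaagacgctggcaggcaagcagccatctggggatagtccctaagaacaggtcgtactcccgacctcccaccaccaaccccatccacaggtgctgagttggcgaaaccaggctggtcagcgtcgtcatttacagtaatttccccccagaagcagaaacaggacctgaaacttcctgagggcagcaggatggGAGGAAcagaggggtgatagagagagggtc
C1qc, chr4:136893066-136893164: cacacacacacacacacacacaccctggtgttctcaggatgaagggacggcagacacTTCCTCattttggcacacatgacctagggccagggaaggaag
C3, chr17:57228137-57228386: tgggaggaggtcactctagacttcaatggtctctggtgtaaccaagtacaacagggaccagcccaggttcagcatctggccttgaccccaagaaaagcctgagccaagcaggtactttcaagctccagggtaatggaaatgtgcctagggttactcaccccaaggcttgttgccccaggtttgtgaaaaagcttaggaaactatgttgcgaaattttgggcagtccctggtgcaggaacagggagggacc
The motif GAGGAA was found once in the C1qb window, 30 to 25 bases before the start. It was found once in the C1qc window, 193 to 188 bases before the start on the opposite strand. It was not found in the window of C3, nor in those of Cfp, C3ar1 and C5ar1. Of all 32851 RefSeq windows of the same length 23.3% held it. No window of the 6 held the MAF motif TGCTGAC (3.81% of all windows), the interferon response motif (2.98%) or the STAT palindrome TTCNNNGAA (7.02%), searched on both strands. The NF-kB consensus, held by 3.90% of all windows, matched once, in the unprinted part of the C1qc window 41 to 32 bases before the start. The motifs did not overlap. A match describes letters in this window only.

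All 3 C1q chain genes fell with PLG, by a factor of 5.07 to 7.09 in plain FPKM, where 31.3% of all tested genes were called lower. C1qb, the most abundant of the 8 genes in untreated cells, was at 228, 236, 187, 206 and 213 FPKM in untreated 1 to 5 and at 33.3, 33.4, 27.4, 26.7 and 30.2 FPKM in PLG 1 to 5. Every PLG sample lay far below every untreated sample, and 24.5% of tested genes were lower with PLG without overlap. The means were 214 ± 18.9 and 30.2 ± 3.15 FPKM (SD, n = 5), a ratio of untreated to PLG of 7.09. On the log2 scale C1qb fell by 2.79 (SE 0.077, limma adjusted p = 2.45e-12). That change ranked 16 from the lowest among the 9997 genes tested.

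C1qc was at 75.5, 67.9, 66.9, 69.0 and 61.4 FPKM in untreated 1 to 5 and at 11.2, 10.3, 10.8, 12 and 12.8 FPKM in PLG 1 to 5. The groups did not overlap, and the ratio of means was 5.97 (log2 fold change -2.48, SE 0.066, limma adjusted p = 1.96e-12). C1qa was at 40.3, 42.8, 46.7, 37.9 and 42.0 FPKM in untreated 1 to 5 and at 8.91, 5.0, 9.59, 8.87 and 9.0 FPKM in PLG 1 to 5. PLG 2 stood below the other PLG samples here, with 212 reads on the gene against 377 to 662, and the groups again did not overlap. The means were 41.9 ± 3.26 and 8.27 ± 1.85 FPKM, with a ratio of 5.07 (log2 fold change -2.24, SE 0.13, limma adjusted p = 4.25e-09). Among the tested genes C1qb went from percentile 99.0 to 86.4, C1qc from 95.5 to 64.9 and C1qa from 91.8 to 55.2.

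**Figure D1:**
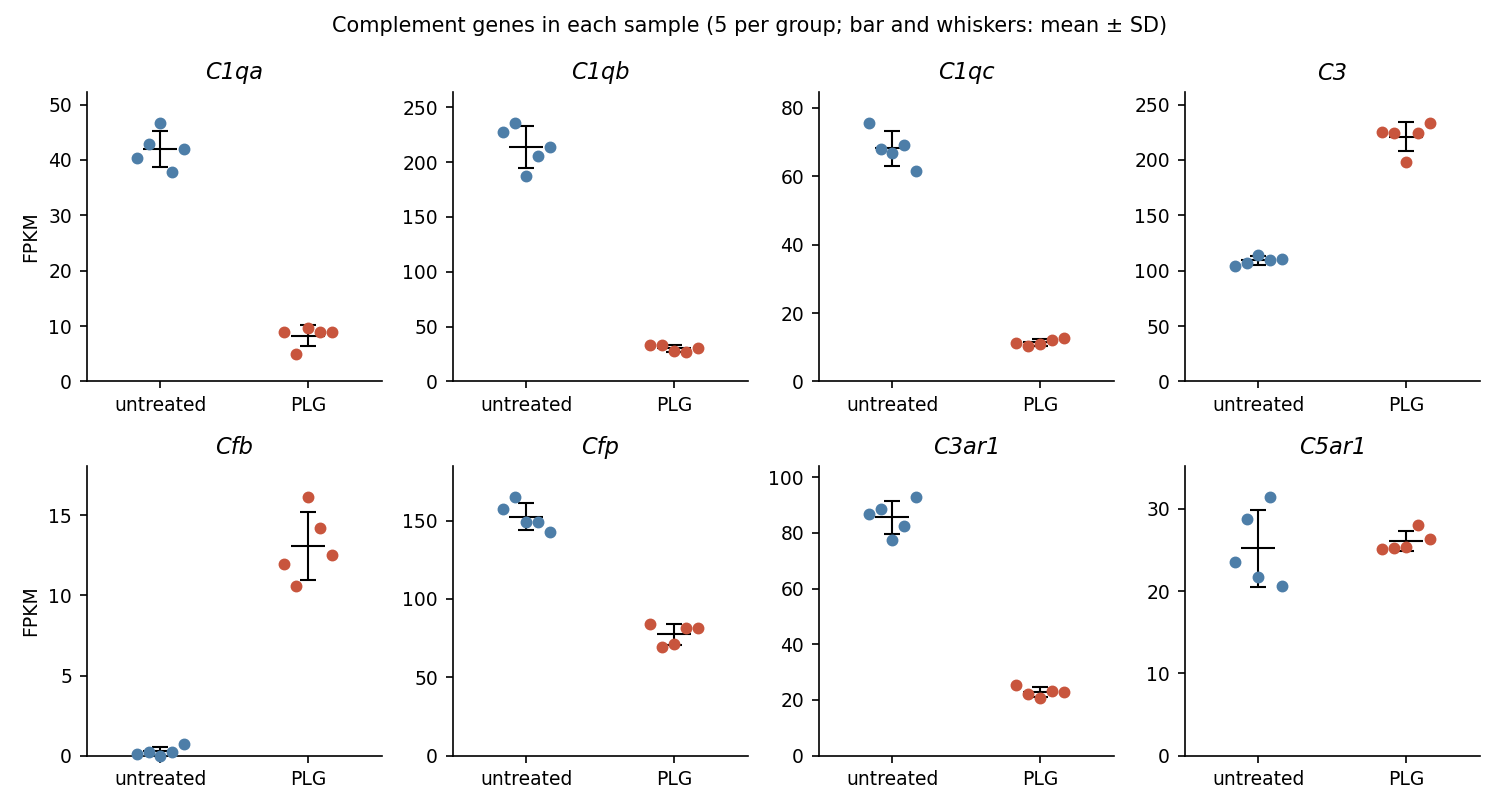
FPKM of the 8 complement genes in each of the 5 untreated and 5 PLG samples, with each panel on its own linear axis from 0; points are samples in the order 1 to 5, bars are means and whiskers SD. The C1q chains, Cfp and C3ar1 lie lower in every PLG sample, C3 and Cfb lie higher, and C5ar1 overlaps.

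A C1q molecule is built from equal numbers of the A, B and C chains, so the balance of the transcripts was compared within each sample. C1qb made up 66.0% ± 2.23 (SD, n = 5) of the summed C1q FPKM in untreated and 60.5% ± 5.11 in PLG samples, C1qc 21.1% ± 1.43 and 22.9% ± 1.96, and C1qa 13% ± 1.52 and 16.6% ± 3.76. The sum itself was 301 to 346 FPKM in untreated and 47.6 to 53.4 FPKM in PLG samples. Ratios between chains do not depend on how samples are scaled. The ratio of C1qa to C1qb was 0.177 to 0.249 in untreated and 0.15 to 0.35 in PLG samples, a difference of 0.45 on the log2 scale. With the two-sided exact permutation test, adjusted by Benjamini and Hochberg over the 5 ratios computed, it did not pass (exact p = 0.103, adjusted 0.129). Neither did C1qa to C1qc (log2 difference 0.20, exact p = 0.254, adjusted 0.254) nor C1qb to C1qc (log2 difference -0.25, exact p = 0.0635, adjusted 0.106). The outcome depends on PLG 2. Among the PLG samples it had the lowest C1qa and C1qc (5.0 and 10.3 FPKM) and the highest C1qb (33.4 FPKM). Without it the differences were 0.66, 0.34 and -0.32 and each passed, with exact adjusted p of 0.0265, 0.0298 and 0.0317.

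C3 and the genes of the alternative pathway did not move as a block. C3 (ENSMUSG00000024164.15, chromosome 17, 57203970 to 57228136) was at 104, 107, 114, 109 and 111 FPKM in untreated 1 to 5 and at 225, 225, 198, 224 and 233 FPKM in PLG 1 to 5. All PLG samples lay above all untreated samples, with PLG 3 the lowest of them. The ratio of PLG to untreated means was 2.03 (109 ± 3.67 and 221 ± 13.3 FPKM, SD, n = 5), and the log2 fold change was 1.01 (SE 0.049, limma adjusted p = 5.96e-10). This made C3 the highest of the 8 genes with PLG, at percentile 98.8 of the tested genes against 97.6 in untreated cells.

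Cfb (ENSMUSG00000090231.10, chromosome 17, 34856374 to 34862518), the gene of factor B, was nearly silent in untreated cells. It was at 0.075, 0.229, 0.010, 0.255 and 0.758 FPKM in untreated 1 to 5, from 9, 21, 1, 23 and 88 reads, and at 12, 10.6, 16.1, 14.2 and 12.5 FPKM in PLG 1 to 5. Each PLG library held at least 1219 reads on the gene, and no values overlapped. The ratio of means was 49.3, and 92.0 without untreated 5, which holds most of the untreated reads. On the log2(FPKM + 1) scale Cfb rose by 3.49 (SE 0.15, limma adjusted p = 1.48e-10), a size that depends on the added constant, with 5.51 for a constant of 0.1 and 1.77 for 5. With voom on the recovered reads it was 6.52. Cfb entered the test only through the PLG samples, since no untreated sample reached 1 FPKM. The gene ends 1 base from Nelfe, a gene on the other strand that also rose, from 9.59 ± 0.453 to 15.3 ± 1.10 FPKM (SD, n = 5). The sources used here do not say whether the counting used strand, so reads of the 2 genes cannot be told apart at their shared edge.

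Cfp (ENSMUSG00000001128.7, chromosome X, 20925454 to 20931555), the gene of properdin, went the other way. It was at 157, 165, 149, 149 and 142 FPKM in untreated 1 to 5 and at 83.7, 69.6, 71.1, 81.5 and 81.5 FPKM in PLG 1 to 5. All PLG samples lay below all untreated samples. The ratio of untreated to PLG means was 1.97, and Cfp fell by 0.97 on the log2 scale (SE 0.062, limma adjusted p = 1.01e-08). Set against each other within samples, C3 was at 0.651 to 0.777 of the Cfp level in untreated and at 2.69 to 3.23 times that level in PLG samples. This change was 2.0 on the log2 scale (exact permutation p = 0.00794, the smallest that 5 against 5 samples allow, adjusted 0.0198). As C3 was higher and Cfp lower in every PLG sample, their ratio had to separate. That p-value was thus fixed by the results of the single genes and adds nothing to them. Cfp exceeded C3 in every untreated sample, and C3 exceeded Cfp in every PLG sample.

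**Figure D2:**
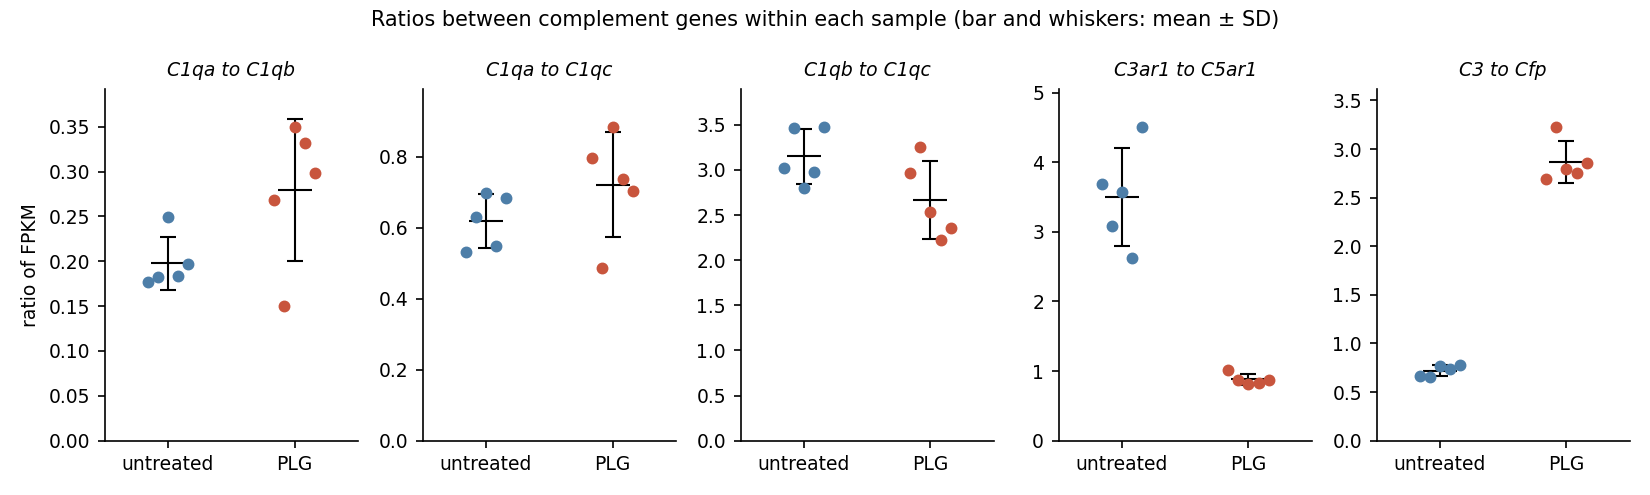
Ratio of FPKM between 2 genes within each sample, for the 5 ratios tested, on linear axes from 0; points are samples, bars are means and whiskers SD (n = 5 per group). The C1q chain ratios overlap between groups, whereas C3ar1 to C5ar1 is 2.63 to 4.51 in untreated and 0.816 to 1.01 in PLG samples, and C3 to Cfp 0.651 to 0.777 and 2.69 to 3.23.

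C3ar1 fell with PLG, and C5ar1, the receptor gene for C5a, did not pass. C3ar1 (ENSMUSG00000040552.8, chromosome 6, 122847138 to 122856161) was at 86.7, 88.5, 77.4, 82.6 and 92.8 FPKM in untreated 1 to 5 and at 25.4, 22.1, 20.7, 23.2 and 23.0 FPKM in PLG 1 to 5. All PLG samples were far below all untreated ones. The ratio of untreated to PLG means was 3.74, and C3ar1 fell by 1.86 on the log2 scale (SE 0.061, limma adjusted p = 1.36e-11).

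C5ar1 (ENSMUSG00000049130.6, chromosome 7, 16246743 to 16259540) was at 23.5, 28.7, 21.7, 31.4 and 20.6 FPKM in untreated 1 to 5 and at 25.1, 25.3, 25.4, 28.0 and 26.4 FPKM in PLG 1 to 5. The PLG values lay inside the wider range of the untreated ones, at means of 25.2 ± 4.68 and 26.0 ± 1.22 FPKM (SD, n = 5). It did not pass (limma adjusted p = 0.607), and the 95% interval of its log2 fold change ran from -0.15 to 0.28. The receptors were also compared through their ratio. C3ar1 was at 3.69, 3.08, 3.57, 2.63 and 4.51 times the C5ar1 level in untreated 1 to 5 and at 1.01, 0.874, 0.816, 0.827 and 0.873 times that level in PLG 1 to 5, a log2 difference of -1.97 (exact permutation p = 0.00794, adjusted 0.0198). The sample ranges of C3ar1 and C5ar1 by themselves forced this ratio to separate. That p-value was thus fixed by the values of the single genes and adds nothing to them. Per length, C3ar1 exceeded C5ar1 in every untreated sample and in PLG 1 only among the PLG samples.

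Of the 8 genes 2 rose, 5 fell and 1 did not pass. Since 60.4% of all tested genes passed, passing by itself says little about these genes. Groups did not overlap for 7 of the 8, against 47.2% of tested genes. The median log2 fold change of the 8 was -1.42, beside -0.02 over all tested genes. By level per length, untreated cells ranked C1qb, Cfp, C3, C3ar1, C1qc, C1qa, C5ar1 and Cfb from high to low, and no neighbours in that order overlapped. With PLG the order was C3, Cfp, C1qb, C5ar1, C3ar1, Cfb, C1qc and C1qa. Here C1qb and C5ar1, C5ar1 and C3ar1, and Cfb and C1qc overlapped in their sample ranges.

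The rest of the complement system was read from lists that hold 54 further genes by role, of which 44 were in the table and 15 were tested. Of these 4 rose, 8 fell and 3 did not pass, with a median log2 fold change of -0.40, beside 60.4% of all tested genes that passed (29.1% higher and 31.3% lower) and a median of -0.02 over them all. Among the initiators of the classical and lectin pathways, those of the C1q-bound proteases were higher with PLG. The C1r gene C1ra rose from 2.77 ± 0.747 to 8.56 ± 0.793 FPKM, its relative C1rl from 0.479 ± 0.217 to 3.41 ± 0.366 FPKM and the C1s gene C1s1 from 0.247 ± 0.243 to 2.16 ± 0.366 FPKM (SD, n = 5). Their limma adjusted p were 3.71e-07, 2.27e-08 and 1.03e-06. Like Cfb, C1rl and C1s1 entered the test only through the PLG samples, since no untreated sample reached 1 FPKM, so a difference was a condition of their being tested. C1ra and C1s1 have close copies, C1rb and C1s2, listed at 0 in all untreated samples and at means of 0.040 and 0.099 FPKM with PLG, so their reads may be divided. Colec12, which encodes a scavenger receptor of the collectin family, fell from 2.88 ± 0.467 to 1.15 ± 0.133 FPKM. C2 and C4b, whose products form the classical convertase, stayed at group means of 0.214 FPKM or below and were not tested. Cfd, the protease that activates factor B, was at means of 0.0542 and 0.122 FPKM. Of the terminal components only C8g was tested, and it did not pass (0.887 ± 0.362 and 1.14 ± 0.468 FPKM).

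**Figure D3:**
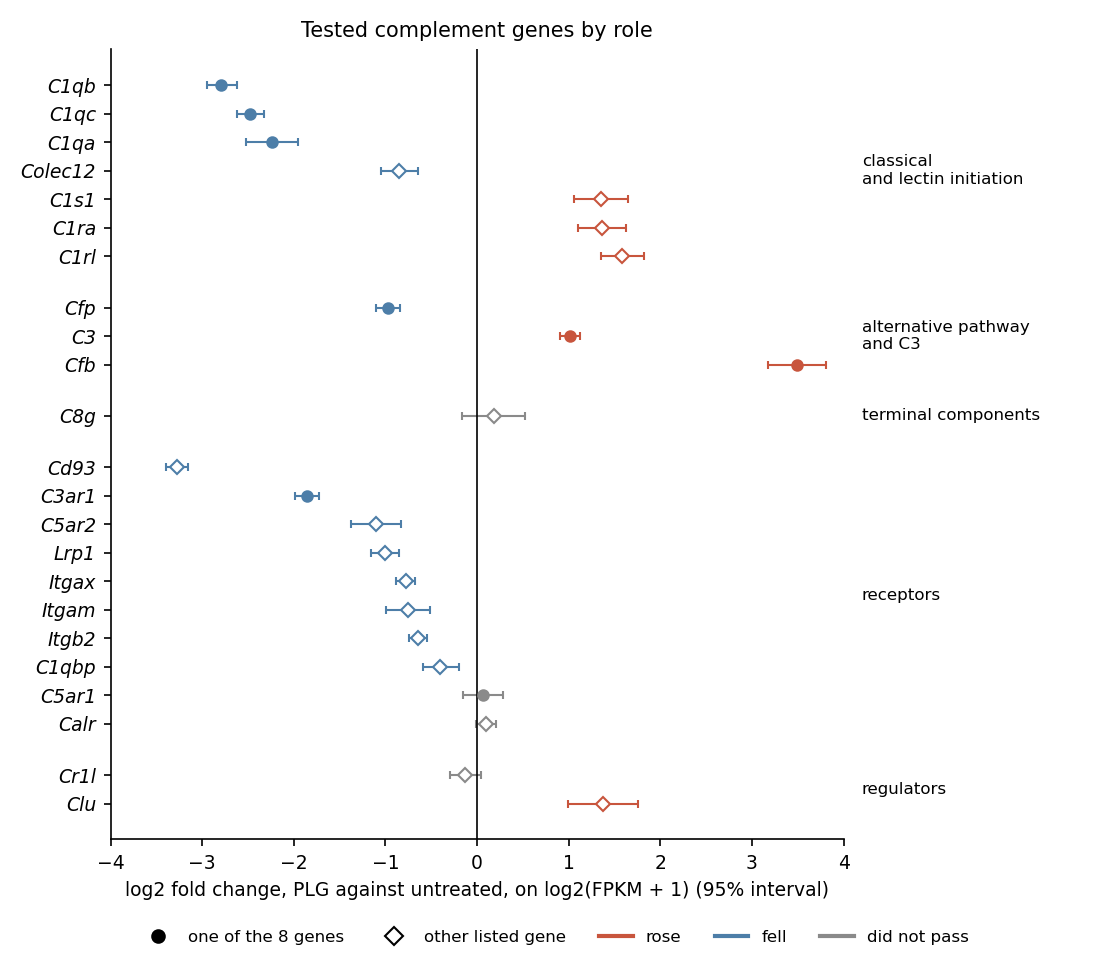
Log2 fold change of every tested complement gene on the log2(FPKM + 1) scale, PLG against untreated, grouped by role, with 95% intervals from limma; filled circles are the 8 genes and open diamonds the other listed genes. The C1q chains lie between -2.79 and -2.24 while C1s1, C1ra and C1rl lie between 1.35 and 1.58, and 8 of the 10 receptor genes lie below 0 with an adjusted p under 0.05.

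Of 10 receptor genes tested, C3ar1 and C5ar1 included, 8 fell, 0 rose and 2 did not pass, by limma with the threshold over all genes, where 31.3% of all tested genes were lower and 29.1% higher. At an unadjusted p under 0.05, 0 rose as well, and with voom on the recovered reads 1 rose, Calr. The steepest was Cd93, once described as a receptor for C1q, from 125 ± 6.61 to 12.1 ± 0.884 FPKM (log2 fold change -3.27, limma adjusted p = 3.56e-14). Lrp1, an endocytic receptor that takes up C1q-coated material together with calreticulin, fell from 127 ± 9.40 to 63.0 ± 6.14 FPKM. Calr, the calreticulin gene, was at 336 ± 19.2 FPKM in untreated and 360 ± 18.2 FPKM in PLG samples and did not pass (SD, n = 5; limma adjusted p = 0.107). Without untreated 2 it passed as higher (0.0387), and with quantile normalization as lower (0.0354). C5ar2, the other C5a receptor gene, lies 2588 bases from C5ar1 and fell from 2.07 ± 0.520 to 0.420 ± 0.180 FPKM (limma adjusted p = 3.80e-06). It entered the test only through the untreated samples, since no PLG sample reached 1 FPKM. The difference between the changes of C5ar2 and C5ar1 was not tested. The integrin chains of complement receptors 3 and 4 also fell, with log2 fold changes of -0.75 for Itgam, -0.78 for Itgax and -0.64 for their shared partner Itgb2. Among regulators, the secreted inhibitor gene Clu rose from 1.87 ± 0.847 to 6.25 ± 1.08 FPKM, and Cr1l, which encodes the rodent membrane regulator Crry, was at 4.68 ± 0.302 and 4.2 ± 0.439 FPKM and did not pass.

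**Figure D4:**
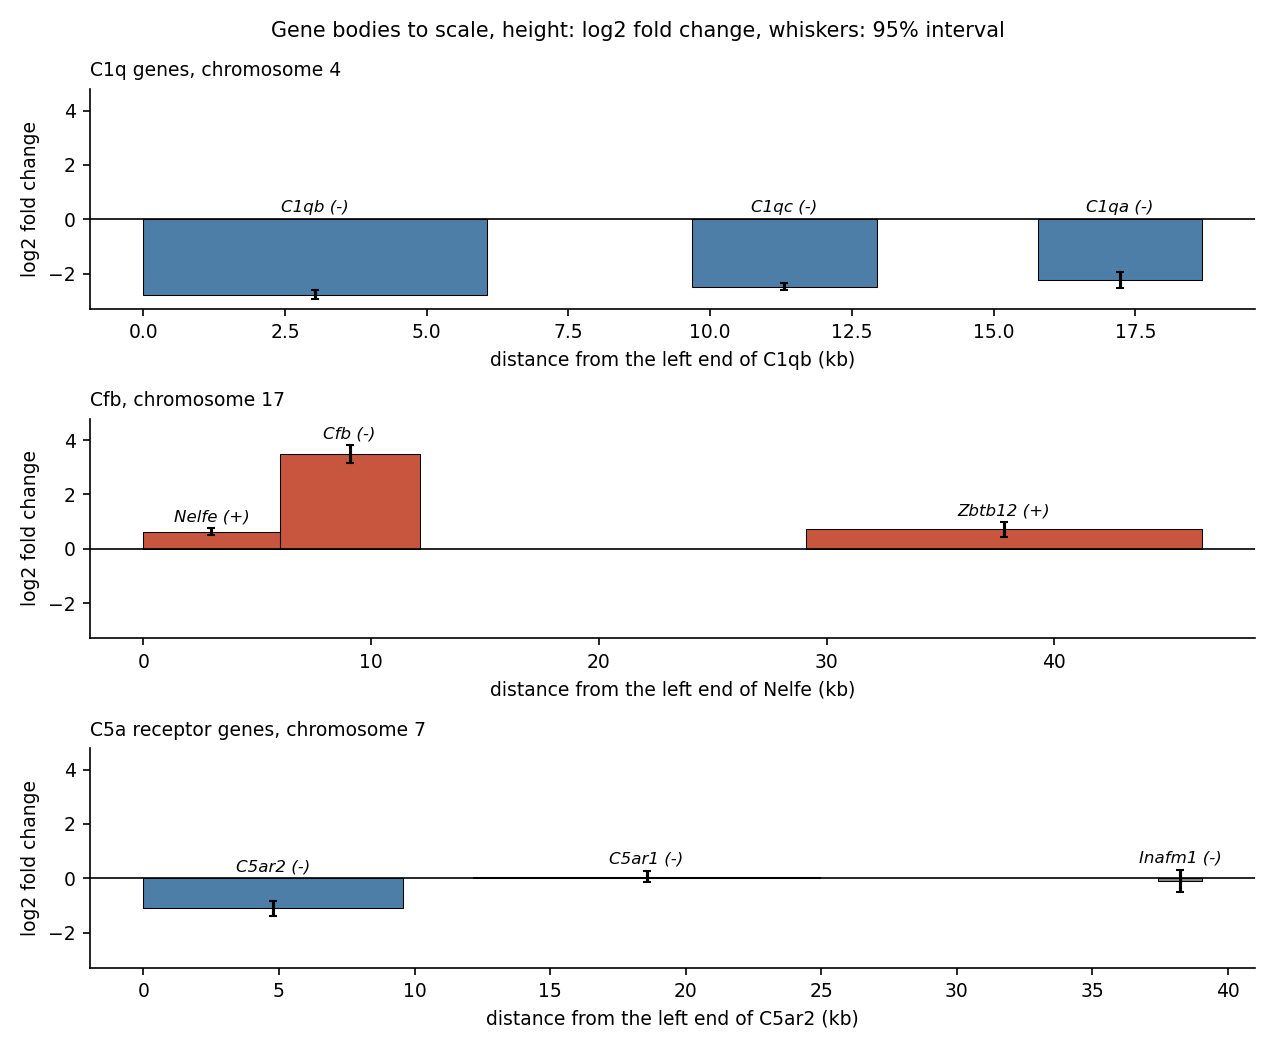
Gene bodies around the C1q genes, Cfb and C5ar1, drawn to scale by distance in kb from the left end of the first gene shown, with strand in brackets; the height is the log2 fold change with PLG and whiskers are 95% intervals. Blue bars fell, red bars rose and grey bars did not pass. Only tested genes are drawn. C2, which was not tested, spans 34862604 to 34898265 between Cfb and the far side of Zbtb12 and is left out. The C1q genes lie between -2.79 and -2.24, while Cfb stands at 3.49 beside Nelfe at 0.62, and C5ar1 at 0.06 beside C5ar2 at -1.10.

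The nearest tested genes to the C1q cluster were Zbtb40, 80928 bases from C1qa, and Kdm1a, 277405 bases from C1qb. Zbtb40 was at 3.04 ± 0.317 and 3.53 ± 0.200 FPKM and did not pass. Kdm1a rose by 0.37 on the log2 scale (limma adjusted p = 0.00241). Beside C3, Tnfsf14 fell by 0.99 and Gpr108 did not pass (log2 fold change 0.05). Flanking C3ar1, Foxj2 did not pass (-0.10) and Necap1 fell by 0.47. Beside Cfp, Elk1 fell by 0.31 and Timp1 rose by 0.96. Elk1 did not pass after scaling to a common sum (-0.27, limma adjusted p = 0.0743) or without untreated 2, PLG 3 and PLG 4 (-0.19, 0.116). Zbtb40 passed in 2 of 23 alternatives and Foxj2 in 3 of 24. On the far sides of Cfb and C5ar1, the nearest tested genes were Zbtb12, which rose by 0.72, and Inafm1, which did not pass (-0.11).

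Genes with the most similar profiles over the 10 samples were sought by the root mean square difference of log2(FPKM + 1) after centring each gene. Among the 8 genes, C1qb and C1qc differed by 0.224, C1qa and C1qc by 0.243 and C1qa and C1qb by 0.411. C1qa was nearer to C3ar1 (0.304) than to C1qb. Closest to C1qb were Pld4, a lysosomal nuclease gene, at 0.0956, and Naaa, a lysosomal amidase gene, at 0.148. Closest to C1qc were Ccl6 (0.124) and Pgap1 (0.131), and to C1qa Fcrls (0.185) and Iqgap2 (0.193). Atp6v0d2 (0.0952) and Lat2 (0.0969) were closest to C3ar1, and Map4k1 (0.0597) and Cyth4 (0.0681) to Cfp. C3 was nearest to Akap13 (0.0472) and Etv6 (0.0487). Cfb was nearest to the interferon-induced gene Ifit2 (0.194) and the adenosine receptor gene Adora2a (0.215), and C5ar1 to Wdr74 (0.0895) and Slc27a1 (0.0919).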

How the data were processed

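RNA from 10 samples was sequenced. The values deposited are FPKM with 3 decimals, computed by the authors, beside each gene's length and coordinates. Per the submitters' processing notes, which state neither role nor order, the build was GRCm38.p6 and the tools were STAR 2.7.3a, cutadapt 2.10, DESeq2 1.24.0, featureCounts 2.0.0 and FastQC 0.11.9. The sources used here do not give the annotation release, strand setting or treatment of multi-mapping reads. The table's positions of the 8 genes equal those of GENCODE M21. Reads were recovered by finding, per sample, the denominator at which FPKM times length gave whole numbers, which held for 100.0% of the values tested within 0.1 read. Groups follow the sample titles. Treatment was the only term in a limma 3.58.1 model (R 4.3.3) of log2(FPKM + 1) with an intensity trend, over genes at 1 FPKM in at least 5 samples, with Benjamini-Hochberg adjustment at 0.05. For genes below the filter, a fit of the unfiltered table was used. The model was tested on simulated data. Within-sample ratios and the 8 genes were also compared with two-sided exact permutation tests over 252 assignments. The members and the gene lists (5 of complement, 9 of cell type markers) were chosen with earlier results of these data known. Named were the 8 genes, per complement list up to 4 passing genes with the largest change and the 2 most abundant that did not pass, the nearest tested genes and the 2 most similar profiles. C1ra, C1s1, Colec12, Itgam, Itgax, Itgb2, C2, C4b, C1rb, C1s2, Cfd, the marker genes and the genes below the filter were named after their values were seen. Some listed genes are not reported here. Alternatives were other pseudocounts, filters, scalings, eBayes settings, weights, a replicate block, voom on recovered reads and left-out samples. Added after seeing the data were scaling without the repeat-like gene models Gm10800 and Gm10801 and leaving out the 3 samples lowest in them.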

Additional observations from a re-analysis of the deposited data

Results flagged for a closer look

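In 3 of 26 groups of 5 samples examined, a sample stood far from the other 4; chance gives about 1 in 20 groups. C1qa in PLG 2 was at 5.0 FPKM, with the other PLG samples at 8.87 to 9.59 FPKM. C3 in PLG 3 was at 198 FPKM, with the others at 224 to 233 FPKM. The ratio of C1qa to C1qb in untreated 3 was 0.249, with the other untreated samples at 0.177 to 0.197.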

How the results depend on the processing

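In the 24 alternatives run on the model across genes, the 7 members that passed kept their direction and passed, and C5ar1 passed in 0 (adjusted p 0.16 to 0.99). Log2 fold changes ranged from -2.93 to -2.64 for C1qb, -2.61 to -2.15 for C1qc, -2.36 to -1.83 for C1qa, -2.02 to -1.70 for C3ar1, -1.21 to -0.92 for Cfp, 0.77 to 1.06 for C3 and 1.77 to 6.52 for Cfb. Of the other complement genes 4 rose, and 1 with a filter of 5 FPKM, which tests fewer genes. Calr passed in 5 of 24 alternatives (adjusted p 0.0106 to 0.382), as lower with quantile normalization (-0.14, Calr adjusted p 0.0354; the cause was not tested) and as higher in the other 4. Deviations from the group means correlated at -0.121 to 0.0988 between same-numbered samples, and only number 1 correlated best with itself. No pairing by replicate number was seen, but such correlations cannot tell whether samples shared mice or cultures. The replicate block gave 5785 calls against 6040 and changed no call on the 8 genes. With paired sign flips in place of the exact test, where 5 pairs allow no p below 0.0625, C1qa (-2.24), C1qb (-2.79), C1qc (-2.48), C3 (1.01), Cfb (3.49), Cfp (-0.97) and C3ar1 (-1.86) reached that bound. In the same way C3ar1 to C5ar1 (-1.97) and C3 to Cfp (2.0) had an adjusted p of 0.104. With a difference of medians these were -2.03 and 1.92 (adjusted p 0.119 for both). Groups that do not overlap, as for both ratios, already give the smallest unadjusted p that this test on medians allows. Leaving out a sample gave log2 differences of 0.36 to 0.66 for C1qa to C1qb, 0.12 to 0.34 for C1qa to C1qc and -0.32 to -0.19 for C1qb to C1qc. Gm10800 ranged from 1339 to 59685 FPKM over the samples, which moves a scaling to a common sum of FPKM. For Cfb the untreated level rests on 1 to 88 reads per library.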

Other observations

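Some listed complement genes under the expression filter passed in the fit without it, at low levels. Hc, which encodes component C5, was at 0.0266 ± 0.0304 FPKM in untreated and 0.161 ± 0.0543 FPKM in PLG samples (SD, n = 5), from 31 and 233 reads over the 5 libraries of each group (limma adjusted p = 0.00178). Serping1, the gene of the C1 inhibitor, was at 0.0410 ± 0.0576 and 0.174 ± 0.0862 FPKM from 20 and 96 reads, and its groups overlapped. Lower with PLG were Susd4 (0.402 ± 0.127 and 0.0748 ± 0.0489 FPKM, 289 and 68 reads) and Cd46 (0.345 ± 0.138 and 0.159 ± 0.0624 FPKM, 499 and 297 reads). The groups of Cd46 overlapped and those of Susd4 did not (limma adjusted p = 0.038 and 0.000486).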
